A study of Mus musculus with 5 samples.

Results

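Promoters of 11 mouse gene families that lie as tandem arrays of related genes were followed through a capture Hi-C comparison of Sertoli cells and pre-granulosa cells. Capture Hi-C joins DNA fragments that lie close together in the nucleus and enriches the joined pairs that contain a chosen promoter fragment, the bait. The families were the vomeronasal receptors (Vmn1r, Vmn2r), the bitter taste receptors (Tas2r), the major urinary proteins (Mup), the killer cell lectin-like receptors (Klr), the C-type lectins (Clec), the kallikreins (Klk), the carboxylesterases (Ces), the cytochromes P450 named Cyp2 or Cyp4, and the UDP glucuronosyltransferases (Ugt). Members were taken by gene symbol alone, from cis interactions (both ends on 1 chromosome) of baits on chromosomes 1 to 9. In the table with original baits, which are single restriction fragments, 137 of 7674 baits were members, with 118 symbols and 279 of the 28991 listed interactions. In the table with extended baits, which are bins with a median length of 5324 bp, 231 of 11063 baits were members, with 206 symbols and 559 of 50644 interactions. The symbol rule also kept Cyp24a1, a vitamin D hydroxylase that is no Cyp2 gene, and 3 extended baits that also carry the promoter of an unrelated gene.

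The cells came from mouse gonads at stage E13.5. Sertoli cells were sorted from Sox9IRES-GFP gonads by GFP (3 libraries), and pre-granulosa cells from Enh8-mCherry gonads by mCherry (2 libraries), each library from 100000 cells, and the chromatin was cut with DpnII. The deposited tables give 1 CHiCAGO score per interaction and cell type, with all libraries of a cell type behind 1 column. They hold no value for a single library, no read count and no expression. The values therefore have no replicate error, no difference between the cell types was tested, the read depth is unknown, and the labelled cell types were not checked against marker genes.

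A CHiCAGO score rises as the read pairs of a bait and another end exceed the background at that distance. Here a call means a score of 5 or more, and the tables list only interactions with a call in 1 cell type or both. A score of 0 may stand for an interaction without a usable value. Among the listed member interactions with original baits, the Sertoli score was 0 in 2 of 279 and the pre-granulosa score in 10. With extended baits these were 5 and 15 of 559.

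Tandem families grow by local duplication, so neighbouring genes can share long stretches of nearly identical DNA. Vomeronasal receptors detect pheromones in the vomeronasal organ, bitter taste receptors act in taste cells, major urinary proteins carry pheromones in urine, and many of the lectin-like receptors act on natural killer and myeloid cells. Kallikreins are secreted serine proteases. Carboxylesterases, cytochromes P450 and UDP glucuronosyltransferases process drugs, lipids and steroids, mainly in the liver. Reads from stretches that are identical between copies cannot be placed uniquely, which is a caution for every contact of genes with near copies.

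The copies' promoters were therefore compared first. Promoter sequences from RefSeq (GRCm38.p6) were found for 106 of the 118 member symbols with original baits and for 186 of 206 with extended baits, and for 417 family genes on chromosomes 1 to 9 in all. The 250 bases upstream of each start were aligned within each family, with free ends because annotated starts are shifted between copies. Below are 4 pairs, with the differing bases of each aligned pair in capitals, 5′ to 3′. Mup15 and Mup19 are shown because neither gene has a listed bait. Mup7 and Mup14 are shown because Mup7 has contacts over 1 Mb. Vmn1r173 and Vmn1r174 are the most alike pair with a listed contact between them. Klk1b9 and Klk1b3 are shown for a contact between more diverged copies.
Mup15, chr4:61439705-61439954, minus strand: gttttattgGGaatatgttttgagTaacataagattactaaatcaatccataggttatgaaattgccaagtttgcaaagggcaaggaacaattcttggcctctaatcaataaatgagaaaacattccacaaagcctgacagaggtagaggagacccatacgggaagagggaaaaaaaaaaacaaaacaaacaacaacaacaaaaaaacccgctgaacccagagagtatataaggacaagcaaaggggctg
Mup19, chr4:61782225-61782474, minus strand: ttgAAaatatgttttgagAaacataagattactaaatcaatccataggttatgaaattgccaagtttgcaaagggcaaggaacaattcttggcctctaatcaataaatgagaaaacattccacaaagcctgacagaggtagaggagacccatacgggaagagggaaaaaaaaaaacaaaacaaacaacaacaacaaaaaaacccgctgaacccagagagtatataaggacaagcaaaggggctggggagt
Mup7, chr4:60070476-60070725, minus strand: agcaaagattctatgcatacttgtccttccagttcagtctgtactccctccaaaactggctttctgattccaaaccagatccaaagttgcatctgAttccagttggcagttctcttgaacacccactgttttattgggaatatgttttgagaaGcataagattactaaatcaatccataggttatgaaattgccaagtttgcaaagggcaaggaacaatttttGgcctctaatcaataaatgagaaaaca
Mup14, chr4:61303999-61304248, minus strand: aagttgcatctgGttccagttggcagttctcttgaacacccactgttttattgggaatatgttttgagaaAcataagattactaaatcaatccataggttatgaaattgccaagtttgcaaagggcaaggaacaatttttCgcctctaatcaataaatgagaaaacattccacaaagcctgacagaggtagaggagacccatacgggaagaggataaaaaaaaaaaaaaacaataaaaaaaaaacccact
Vmn1r173, chr7:23702092-23702341, plus strand: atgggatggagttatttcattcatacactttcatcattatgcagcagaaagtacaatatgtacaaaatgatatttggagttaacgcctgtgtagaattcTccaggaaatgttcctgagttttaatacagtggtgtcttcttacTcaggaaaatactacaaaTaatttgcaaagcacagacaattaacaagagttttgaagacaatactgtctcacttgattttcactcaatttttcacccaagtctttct
Vmn1r174, chr7:23753661-23753910, plus strand: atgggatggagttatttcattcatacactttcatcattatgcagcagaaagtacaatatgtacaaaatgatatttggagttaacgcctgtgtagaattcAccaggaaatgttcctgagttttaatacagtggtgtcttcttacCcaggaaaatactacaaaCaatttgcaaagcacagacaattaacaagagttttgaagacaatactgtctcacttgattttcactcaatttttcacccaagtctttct
Klk1b9, chr7:43975811-43976060, plus strand: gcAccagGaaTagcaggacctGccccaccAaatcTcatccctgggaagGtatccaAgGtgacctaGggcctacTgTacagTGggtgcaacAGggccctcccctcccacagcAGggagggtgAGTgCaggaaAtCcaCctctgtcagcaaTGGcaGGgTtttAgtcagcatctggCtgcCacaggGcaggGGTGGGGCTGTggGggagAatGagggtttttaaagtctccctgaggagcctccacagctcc
Klk1b3, chr7:44197941-44198190, plus strand: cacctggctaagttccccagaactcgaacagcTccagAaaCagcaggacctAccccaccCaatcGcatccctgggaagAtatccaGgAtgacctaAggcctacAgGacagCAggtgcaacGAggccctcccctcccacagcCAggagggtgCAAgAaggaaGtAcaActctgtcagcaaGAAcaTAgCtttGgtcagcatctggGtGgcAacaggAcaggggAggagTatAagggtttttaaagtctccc

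Mup15 and Mup19 were identical in 98.8% of 244 aligned columns, and Mup7 and Mup14 in 98.2% of 167. Vmn1r173 and Vmn1r174 were identical in 98.8% of 250 columns. Klk1b9 and Klk1b3 were identical in 78.4% of 231 columns.

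Genes whose promoter had a near copy in the family rarely had a listed bait. Where the most alike family promoter was at least 95% identical, 4 of 126 genes had a listed original bait (3.17%, 95% Wilson interval 1.24 to 7.88) and 6 of 126 an extended bait (4.76%). Under 95%, these were 102 of 291 genes (35.1%, 29.8 to 40.7) and 180 of 291 (61.9%, 56.2 to 67.2). The share with an original bait was 34.0% for an identity of 90 to 95% and 35.6% under 70%, so it dropped between the highest 2 classes and was nearly level below them. With extended baits it was 47.2% for 90 to 95% and 67.8% under 70%. The step was present within single families. Among Vmn1r genes, 2 of 77 with a near copy had an original bait, against 37 of 84 without one, and with extended baits 5 of 77 against 61 of 84. Among Vmn2r genes, 1 of 30 had an original bait against 10 of 44. Among Mup genes, 1 of 9 had an original bait against 3 of 5, and in the major urinary proteins all 14 promoters had a relative at 90% or more. No Tas2r, Ces or Cyp4 promoter had a family relative at 90% or more. Whether baits were left out of the capture design, lost reads at mapping or had no interaction at 5 or more was not tested.

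**Figure D1:**
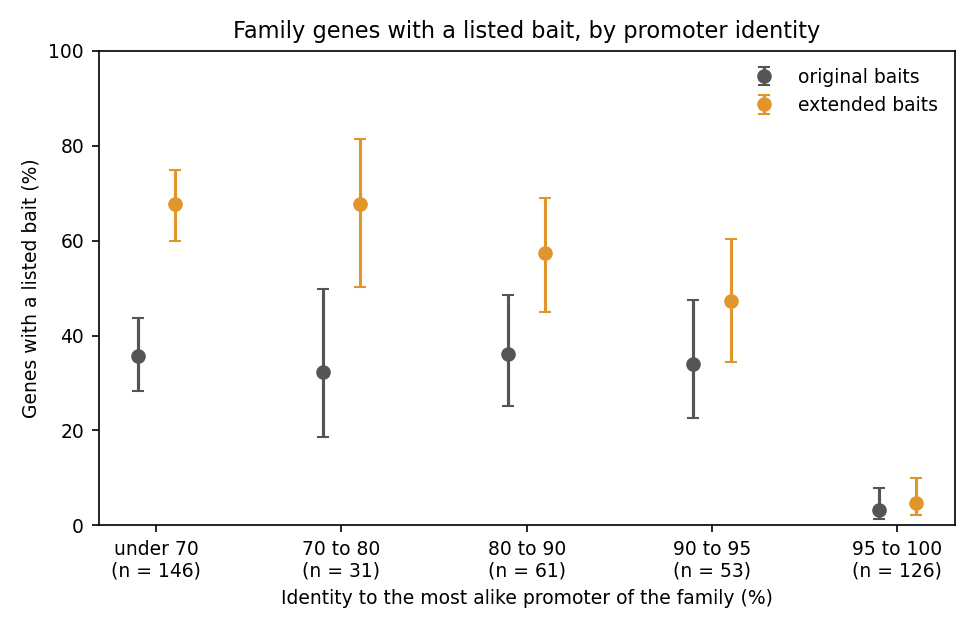
Share of family genes on chromosomes 1 to 9 that have a listed bait (vertical axis, percent) by the identity of the 250 upstream bases to the most alike promoter of the family (horizontal axis, percent, with the number of genes). Points are shares with 95% Wilson intervals, grey for original and orange for extended baits. Both shares are lowest in the class of 95 to 100, at 3.17% and 4.76%.

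The members were thus a thinned sample of their families. Of the protein-coding family genes in the RefSeq table, 24.6% had a listed original bait and 42.8% an extended bait, against 45.4% and 68.0% of all protein-coding genes. With extended baits, Klk (20 of 26 genes), Tas2r (26 of 34), Ugt (15 of 20) and Clec (20 of 30) were the best covered. Vmn2r (12 of 81), Mup (5 of 22) and Klr (7 of 29) were the least covered. Members of 1 array are neighbours and share bins, so they are not independent of each other.

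Over all 11 families, calls at a score of at least 5 were about equally frequent in both cell types. With equal numbers of top-scoring calls per cell type this did not hold, and the original ratio was 0.51 for the members and 1.01 for the baits of no member family. With original baits, 179 of 279 member interactions were called in Sertoli cells (64.2%, against 80.2% of all listed interactions) and 177 in pre-granulosa cells (63.4%, against 41.5%). Sertoli calls divided by pre-granulosa calls gave 1.01, against 1.95 for the baits of no member family. Both cell types called 77 of the 279 (27.6%, 95% Wilson interval 22.7 to 33.1), against 21.7% of all. More Sertoli calls were found at 50 of 137 member baits (36.5%, against 65.2% of all baits) and more pre-granulosa calls at 62 (45.3%, against 22.0%). With extended baits, 372 of 559 interactions were called in Sertoli cells (66.5%, against 78.7% of all) and 346 in pre-granulosa cells (61.9%, against 55.9%), a ratio of 1.08 against 1.41. Both cell types called 159 (28.4%, 24.9 to 32.3), against 34.6% of all. More Sertoli calls were found at 90 of 231 member baits (39.0%, against 53.6% of all baits), and 90 baits had more pre-granulosa calls (39.0%, against 26.4%).

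The families did not share 1 ratio. The chemosensory families (Vmn1r, Vmn2r and Tas2r) had fewer Sertoli than pre-granulosa calls, 76 against 107 with original baits and 148 against 198 with extended baits, ratios of 0.71 and 0.75. The proteases and drug-metabolising enzymes (Klk, Ces, Cyp2, Cyp4 and Ugt) had more, 62 against 38 and 141 against 89, ratios of 1.63 and 1.58. The lectin-like receptors (Klr and Clec) had 30 against 23 and 74 against 52, ratios of 1.30 and 1.42. Without Clec18a, left out after seeing the data, they had 20 against 23 and 65 against 49, so the original-bait direction turned (0.87) and the extended one did not (1.33). The urinary proteins had 11 against 9 in 13 interactions and 9 against 7 in 12, from 5 baits in each table, and this direction turned at a score of at least 7 (5 against 7 and 2 against 3) and with equal numbers of calls (7 against 9 with original baits). With original baits all 4 classes lay below the 1.95 of the baits of no member family, while with extended baits the enzymes and the lectin-like receptors lay at or above its 1.41. When the higher-scoring calls of the 2 cell types were matched in number, the ratio was 1.01 for the baits of no member family, 0.71 for the enzymes, 0.61 for the lectin-like receptors and 0.40 for the chemosensory families. The Sertoli excess of the enzymes and lectin-like receptors thus turned under that scaling, while the chemosensory families stayed the lowest. The chemosensory ratio stayed under 1 at a score of at least 7 (0.78), at 20 kb or more (0.50), without chromosome 6 (0.75) and without chromosome 7 (0.60). Olfactory receptor baits, another chemosensory array family that is no member here, had ratios of 0.76 and 0.80.

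**Figure D2:**
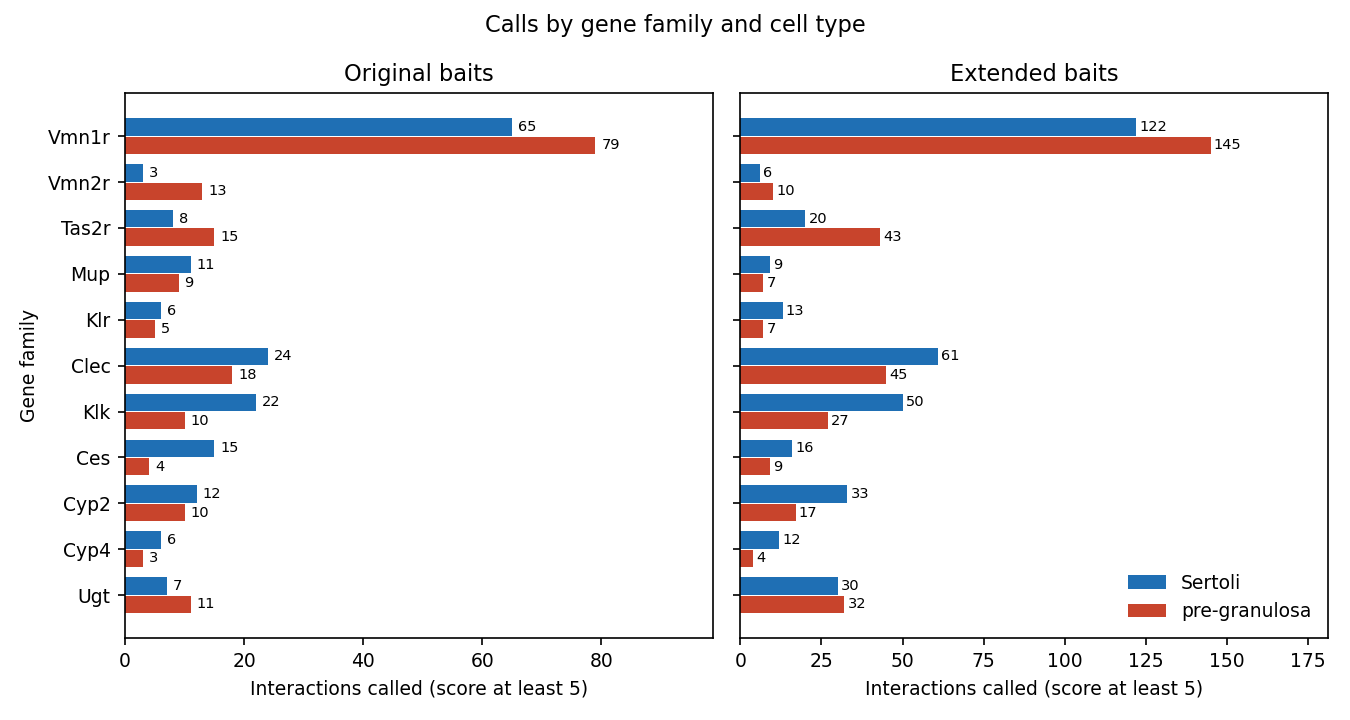
Number of interactions called at a score of at least 5 (horizontal axis) for each gene family (vertical axis) in Sertoli cells (blue) and pre-granulosa cells (red), with original baits on the left and extended baits on the right. Vmn1r, Vmn2r, Tas2r and Ugt have more pre-granulosa calls in both panels. The other 7 families have more Sertoli calls in both.

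Pooled over the families, member contacts were shorter than those of other baits. With original baits the median distance was 9.40 kb for Sertoli calls (95% order-statistic interval 8.34 to 12.4) and 9.42 kb for pre-granulosa calls (8.37 to 13.3), against 42.9 and 26.5 kb for the other baits. With extended baits, which list nothing under 10 kb, the medians were 26.8 and 21.5 kb, against 48.0 and 38.0 kb. The chemosensory families had original medians of 8.10 and 8.44 kb. Without them the original medians were 17.5 and 14.9 kb and the extended ones 39.4 and 31.8 kb. The lectin-like receptors were longer than the other baits with extended baits (56.1 and 86.7 kb) and, for pre-granulosa calls, with original baits (48.2 kb). The chemosensory ratio was under 1 in every distance class under 100 kb, in both tables, and was lowest at 20 to 50 kb with original baits (3 against 11 calls). At 100 kb or more it was 6 against 6 calls with original baits and 27 against 22 with extended baits. For the other 8 families it was 30 against 13 and 57 against 36 calls at that reach, ratios of 2.31 and 1.58. The baits of no member family had ratios of 2.68 and 1.67 there. Because distance and the ratio move together in all baits, the short reach of the members moves with their ratio, and its part was not tested. Within each distance class, the chemosensory ratio stayed below that of the baits of no member family, for example 0.79 against 1.45 under 10 kb.

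**Figure D3:**
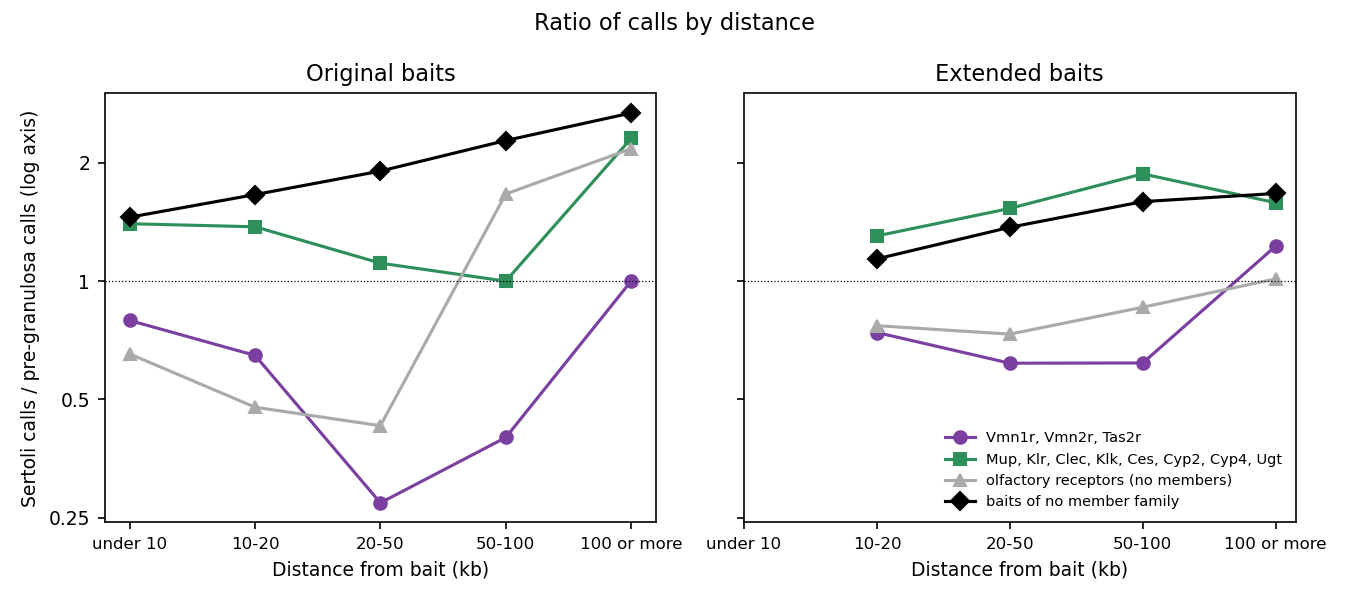
Sertoli calls divided by pre-granulosa calls (vertical axis, log scale) by distance from the bait (horizontal axis, kb), for original baits (left) and extended baits (right, none under 10 kb). Lines join the chemosensory families (purple), the other 8 families (green), olfactory receptors (grey) and baits of no member family (black), and the dotted line marks 1. The purple line lies under 1 at every distance below 100 kb.

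Vomeronasal receptors of the Vmn1r family gave the most interactions, 101 from 56 original baits and 203 from 94 extended baits. Calls in Sertoli and pre-granulosa cells numbered 65 and 79 of the 101 original interactions, where 80.2% and 41.5% of all interactions were called, and 122 and 145 of the 203 extended ones, against 78.7% and 55.9% of all. Both cell types called 42.6% of the original interactions, above the 21.7% of all, and 31.5% of the extended ones, below the 34.6% of all. Vmn1r50 had the most original contacts, 4 Sertoli and 7 pre-granulosa calls within 40.3 kb, the highest at 3.40 kb with scores of 10.9 in Sertoli and 9.57 in pre-granulosa cells. Its extended bait ran the other way, with 5 Sertoli and 2 pre-granulosa calls. Vmn1r171 reached 15.9 and 12.2 at 6.32 kb, the highest Sertoli score of the family with original baits. Vmn1r66, with extended baits, reached 18.0 and 27.3 at 10.4 kb and 17.9 and 18.8 at 11.5 kb on the other side. These short contacts were high in both cell types.

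Vmn1r20 (chromosome 6) had 5 contacts with its original bait, and all lay 118 to 144 kb away. The highest, with chr6:57567365-57572572, scored 11.8 in Sertoli and 14.6 in pre-granulosa cells, and the bins on either side scored 6.75 and 1.89, and 9.62 and 7.08. The extended bait gave 10.9 and 14.1 for the same stretch and added the promoters of Ppm1k (4.18 and 6.43) and Herc6 (9.62 and 3.48). The original bins overlap no RefSeq gene and lie within the span of the array, between Vmn1r20 and Vmn1r21, beside these genes of other families.

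Vmn1r174 and Vmn1r171 each had 7 extended contacts, the most of the family, with 2 Sertoli and 6 pre-granulosa calls for Vmn1r174 and 5 and 5 for Vmn1r171. Some Vmn1r baits had calls in 1 cell type alone. Of the listed original baits of Vmn1r68, 1 had 4 Sertoli calls, at 5.70 to 9.11, and 0 pre-granulosa calls, with pre-granulosa scores of 1.33 to 4.77, while the other was called in pre-granulosa cells alone, at 2.01 and 6.43 with a bin 7.98 kb away. The extended bait of that second promoter had 1 contact, with Vmn1r67 at 109 kb, which ran the other way at 5.94 and 2.44. As an extended bait Vmn1r11 had 0 Sertoli and 3 pre-granulosa calls, at 5.27 to 6.33. As the other end it had Sertoli calls from Vmn1r13 (10.7 and 3.93), Vmn1r10 (9.12 and 6.89), Vmn1r5 (6.70 and 1.5) and Vmn1r12 (5.56 and 6.54). Vmn1r84 had 0 and 3 calls as a bait, at 5.16 to 5.78, and scored 2.55 and 5.50 as the other end of Vmn1r82.

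Vmn2r receptors were thinly covered and mostly called in pre-granulosa cells. With original baits, 11 baits gave 15 interactions, 3 called in Sertoli and 13 in pre-granulosa cells, where 80.2% and 41.5% of all interactions were called. With extended baits, 12 baits gave 13 interactions, 6 called in Sertoli and 10 in pre-granulosa cells, against 78.7% and 55.9% of all. Vmn2r23 had the highest pre-granulosa score with original baits, 8.92 against 5.32 in Sertoli cells at 9.69 kb. Vmn2r59 scored 1.03 in Sertoli and 7.63 in pre-granulosa cells at 9.91 kb, and 0.99 and 8.76 with the extended bait. Vmn2r63 scored 1.20 and 6.46, and 1.12 and 6.98. Vmn2r52 ran the other way, 7.29 and 1.73, and 9.14 and 1.98 with the extended bait.

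Bitter taste receptors had the lowest extended ratio, 20 Sertoli against 43 pre-granulosa calls in 51 interactions from 25 baits (0.47), where 78.7% and 55.9% of all interactions were called. With original baits these were 8 against 15 in 19 interactions from 10 baits, against 80.2% and 41.5% of all. Most of the extended contacts lay in the array of 21 genes on chromosome 6 (15 against 31 calls), where 32 of 36 joined 2 Tas2r baits. The highest pairs were called in both cell types. From the Tas2r123 bait, Tas2r116 scored 24.3 in Sertoli and 20.9 in pre-granulosa cells at 12.0 kb, and from the Tas2r116 bait the pair scored 10.7 and 10.1. Tas2r110 and Tas2r116 scored 19.0 and 21.8 from Tas2r110 but 5.69 and 9.10 from Tas2r116. Tas2r122 and Tas2r121 scored 15.8 and 21.2, and 12.5 and 15.2. All 3 pairs were called in both cell types from both sides, though with lower scores from the second side. Tas2r106 and Tas2r114, 10.7 kb apart, scored 2.95 and 12.8 from the first bait and 4.14 and 8.99 from the second, so this near pair was called in pre-granulosa cells alone. Tas2r123 and Tas2r103, 189 kb apart, scored 0 and 7.03 from Tas2r123 and 0.54 and 8.10 from Tas2r103. Tas2r103 and the neighbouring Tas2r116, 177 kb apart, ran the other way at 7.78 and 3.24, listed from the Tas2r103 bait alone. From Tas2r116, the original bait scored 1.95 and 5.50 with a bin that overlaps the Tas2r103 bin. The extended Tas2r116 bait scored 0 and 6.82 with the bin next to Tas2r103. Tas2r108, with the most original contacts of the family, had 2 Sertoli and 3 pre-granulosa calls, the highest at 5.30 and 8.54. The remaining extended Tas2r baits were spread over the smaller loci near Tas2r108 and Tas2r126, and original baits had a further single locus, Tas2r118. At Tas2r126 the bin 10.3 kb away scored 4.62 and 9.25.

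Major urinary protein baits lay in 2 groups on chromosome 4. Mup4 contacted a bin at its own gene with 11.2 in Sertoli and 9.46 in pre-granulosa cells, and Mup3 had the most contacts (8.16 and 11.1 at 3.38 kb). Mup3 and Mup21, with promoters 92.7% identical, were joined at 62.5 kb with 5.74 and 5.12.

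Mup7 (chr4:60070350-60070644) had 3 original contacts and all lay over 1 Mb away. The bins, chr4:61829504-61834797, chr4:61846167-61851497 and chr4:61851498-61857015, overlap the annotated Mup5 gene (chr4:61831319-61858043). They scored 8.75 and 0, 12.0 and 7.08, and 5.76 and 21.3 in Sertoli and pre-granulosa cells. The extended bait gave 8.60 and 0, 5.13 and 7.18, and 5.71 and 14.4. The 3 bins of 1 gene therefore did not order the cell types the same way. Mup7 lies in a family whose promoters are nearly identical (Mup7 and Mup14 above), and whether these contacts come from reads of another copy was not tested.

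Lectin-like receptors gave 46 original and 98 extended interactions, most of them in the natural killer gene complex on chromosome 6. In this complex, 11 extended Clec baits gave 60 interactions, 47 called in Sertoli and 33 in pre-granulosa cells, close to the shares over all extended interactions (78.7% and 55.9%). With original baits this cluster had 7 baits of 6 genes and ran the other way, 11 against 15 calls of 22 interactions, against 80.2% and 41.5% of all. The bait sizes thus cover different sets of genes there. Of the 10 possible pairs among Clec12b, Clec1b, Clec9a, Clec1a and Clec7a, all but Clec1a and Clec7a were listed, and Clec12b and Clec1b also to Gabarapl1, an autophagy gene. Clec7a (Dectin-1, a receptor for fungal glucans) and Clec9a scored 18.4 in Sertoli and 8.58 in pre-granulosa cells at 65.1 kb from the Clec7a bait, and 14.7 and 6.41 from the Clec9a bait. Clec12b and Clec7a scored 12.1 and 8.58 from the Clec7a bait and 6.17 and 5.80 from the Clec12b bait. Clec12b and the Gabarapl1 promoter ran the other way, 9.53 and 18.6 at 148 kb. A bin 138 kb from Clec12b scored 15.4 and 9.27. Clec1a joined Clec12b with 8.03 and 0.96 and Clec1b with 5.72 and 0.86, and 5.97 and 0.84 from the other side.

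Clec7a was measured through both bait sizes. Its original fragment had 0 Sertoli and 4 pre-granulosa calls, with Sertoli scores of 1.52 to 3.24 and pre-granulosa scores of 5.0 to 6.37. Its extended bin had 5 interactions, 4 of them with Sertoli calls, at 5.90 to 18.4, and 3 with pre-granulosa calls. The 1 contact found in both tables was alike, 3.06 in Sertoli and 6.37 in pre-granulosa cells with the original bait and 2.99 and 6.99 with the extended one. The extended bin covers the fragment's surroundings, so the values are not of the same DNA.

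Clec18a, on chromosome 8, was called in Sertoli cells alone with original baits. Clec18a-208 had 7 Sertoli and 0 pre-granulosa calls, and Clec18a-203 had 3 and 0. The Sertoli scores of Clec18a-208 ran from 5.14 to 11.6 and its pre-granulosa scores from 0 to 3.81. They included a bin of Ddx19b (7.78 and 0.30), bins of Cog4 (5.63 and 0, and 5.55 and 0) and bins in Clec18a itself (11.6 and 1.84 at 20.2 kb). With extended baits the locus gave 9 Sertoli and 3 pre-granulosa calls. Both promoters of the gene were joined at 14.6 and 6.71 from Clec18a-208 and 11.6 and 6.15 from Clec18a-203, and the Aars promoter scored 5.85 and 7.79 from that bait but 13.1 and 3.09 from Clec18a-203.

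Klr genes gave few contacts, some of them long. Klrb1f contacted a bin in 2310001H17Rik at 185 kb with 11.5 in Sertoli and 0.45 in pre-granulosa cells, while its extended bait gave 7.54 and 3.06. A bin at 202 kb scored 3.73 and 6.80. Klre1 and the Magohb promoter, 1713 kb apart, scored 14.3 and 4.18. Klrd1, whose product pairs with NKG2 receptors, and the Styk1 promoter, 1723 kb apart, scored 8.15 and 0. Clec5a, outside the complex, scored 26.8 and 23.1 with the neighbouring olfactory receptor Olfr460 at 15.7 kb, the highest Sertoli score of the class. As a bait, the bin shared by Clec2i and BC035044 had 7 Sertoli calls, at 5.10 to 7.59, and 0 pre-granulosa calls. As the other end it had pre-granulosa calls from Clec2g (3.81 and 6.15), Clec2f (5.86 and 6.93) and Clec2d (0 and 5.27), contacts that were each listed from the Clec2g, Clec2f or Clec2d bait alone.

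Among the 11 families, kallikreins had the highest share of contacts within the family, though olfactory receptor baits, no members here, had 84.5%. Of 65 extended interactions, 55 (84.6%) joined 2 Klk baits of the single array on chromosome 7. Of the 65, 50 were called in Sertoli and 27 in pre-granulosa cells (78.7% and 55.9% over all extended interactions). With original baits these were 22 and 10 of 27, near the shares over all baits (80.2% and 41.5%). The 11 baits of Klk1 and the Klk1b genes gave 28 and 14 calls, and the 10 baits of Klk5 to Klk14 gave 22 and 13. Klk1b1 and Klk1b9 had the highest Sertoli score between Klk baits, 15.4 and 11.7 at 11.03 kb from the Klk1b1 bait and 12.6 and 10.2 from the other side. Klk1b4 and Klk1b5 had the highest pre-granulosa score, 10.7 and 13.9, and 10.7 and 10.2 from the other side. Klk7 and 1 promoter of Klk6 scored 13.7 and 2.01 at 10.7 kb, and 5.90 and 0.97 from Klk6. The other Klk6 promoter ran the other way, 4.71 and 7.08, and 1.93 and 5.09. Klk10 and Klk8 scored 3.04 and 9.28 at 15.8 kb, and 2.76 and 6.85. Klk12 joined Klk10 with 9.0 and 7.26, and 10.3 and 9.62, and Klk9 with 5.06 and 0.27, and 8.54 and 0.72. Klk1b26, with the most original contacts, scored 8.48 and 11.4 at 2.94 kb and 0.74 and 6.81 at 28.1 kb.

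Every Klk contact between family baits at 100 kb or more was called in Sertoli cells and not in pre-granulosa cells, 6 listings of 4 pairs. At that reach the extended baits of no member family had 9441 Sertoli against 5649 pre-granulosa calls, a ratio of 1.67. Klk1b9 and Klk1b3, printed above, scored 10.96 in Sertoli and 4.09 in pre-granulosa cells from the first bait at 223 kb, and 11.7 and 4.71 from the second. Klk1b1 and Klk1b4, at 239 kb, scored 5.50 and 3.05, and 5.68 and 3.98. Over the 6 listings the pre-granulosa scores ran from 0.86 to 4.71, so some lay only slightly under 5. With original baits, Klk1b3 and the bin of Klk1b9 scored 6.15 and 0, Klk1b5 and the same bin 6.86 and 0, and Klk1b8 and the bin of Klk1b3 6.0 and 0. Klk1 and the bin of Klk15, 283 kb away, scored 8.59 and 2.02. A nearer pair, Klk9 and Klk5 at 52.4 kb, scored 9.46 and 0.39 from Klk9 and 6.47 and 0.18 from Klk5.

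**Figure D4:**
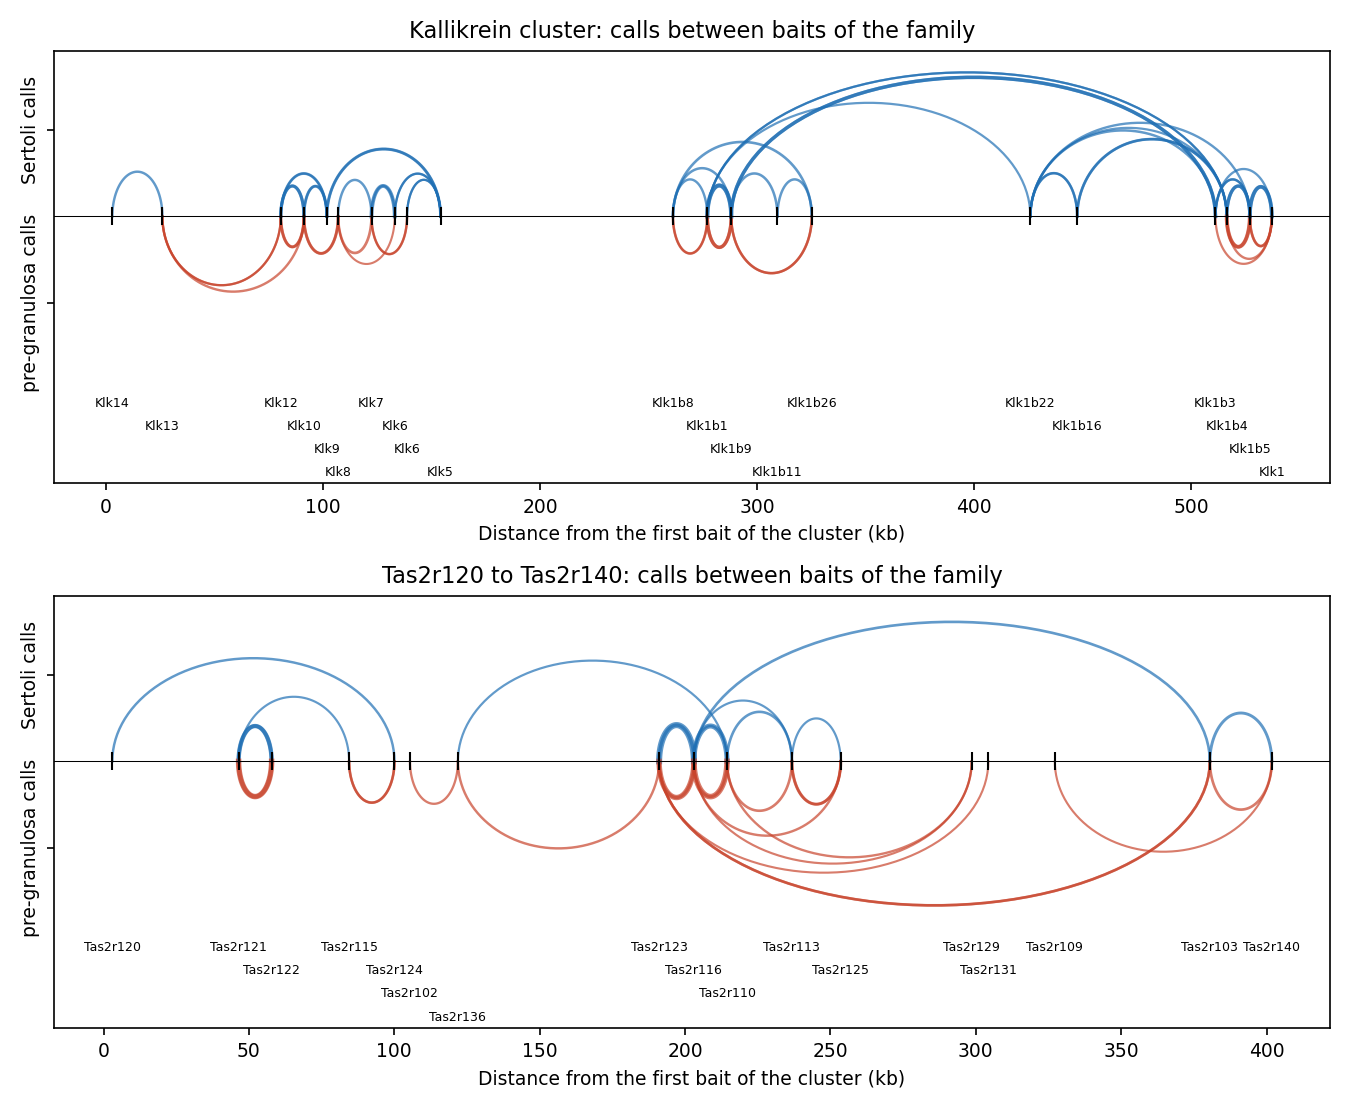
Calls between extended baits of 1 family in the kallikrein array (top) and in the Tas2r stretch from Tas2r120 to Tas2r140 (bottom), by distance from the first bait shown (horizontal axis, kb). Arcs above the line are Sertoli calls and arcs below are pre-granulosa calls, thicker for higher scores, with ticks for promoters and an arc height that has no scale. The longest kallikrein arcs, at 223 and 239 kb, are above the line alone, and the 189 kb arc of Tas2r123 and Tas2r103 is below it alone.

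Carboxylesterase baits were called mostly in Sertoli cells with original baits, 15 against 4 of 19, near the share of all original interactions in Sertoli cells (80.2%) and below it in pre-granulosa cells (41.5%), and 0 of 19 interactions were called in both (95% Wilson upper bound 16.8%), against 21.7% of all. With extended baits these were 16 against 9 of 23, against 78.7% and 55.9% of all, and 8.70% were called in both, against 34.6%. Ces2e had 5 Sertoli and 0 pre-granulosa calls with the original bait, with 13.3 and 3.56 at 2.76 kb and pre-granulosa scores of up to 4.67. As the other end of extended baits, Ces2e scored 7.25 and 5.27 from Ces2f and 4.57 and 6.17 from Ces2g. Ces4a had 5 and 1 with the original bait and 5 and 0 with the extended bait. Its highest original contacts lay at Cbfb, which encodes the partner of the RUNX transcription factors, with 10.04 and 3.27 at 82.7 kb and 11.1 and 3.62 at 88.5 kb. The extended bait gave 9.42 and 2.88, and 9.74 and 3.19, for these bins, and 15.7 and 4.05 for the D230025D16Rik promoter at 100 kb. The promoters of B3gnt9 (7.67 and 1.61) and Nol3 (8.23 and 1.71) followed further out. Ces1e and Ces1g, 105 kb apart, ran the other way, 1.96 and 6.51 from Ces1e and 1.82 and 6.12 from Ces1g.

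Cytochrome P450 baits with original fragments had 12 Sertoli and 10 pre-granulosa calls in 16 Cyp2 interactions and 6 and 3 in 7 Cyp4 interactions, where 80.2% and 41.5% of all interactions were called. With extended baits these were 33 and 17 of 39, and 12 and 4 of 13, against 78.7% and 55.9% of all. Cyp2b19 and Cyp2f2, 363 kb apart within their array, scored 8.73 in Sertoli and 0.71 in pre-granulosa cells from Cyp2b19, and 8.99 and 1.18 from Cyp2f2. All 6 listed Cyp2 contacts with another Cyp2 bait, of 5 pairs with Cyp2j13 joined to its own second promoter among them, were called in Sertoli cells, against 0 in pre-granulosa cells, though the Cyp2j13 pair scored 4.96 there, just under 5. Cyp2w1 and the Gper1 promoter (an oestrogen-responsive G protein-coupled receptor) scored 12.0 and 3.77 at 71.7 kb. Cyp2b10 had the highest original Cyp2 scores, 12.3 and 9.13 at 3.80 kb. Cyp2s1, with the most original Cyp2 contacts, scored 8.45 and 4.25 with a bin of Axl, a receptor tyrosine kinase, at 53.7 kb, and 7.48 and 3.49 with the extended bait. Cyp4x1 gave 3 extended contacts within its gene, the highest at 8.44 and 3.12. Cyp4f18 had 6 Sertoli calls and 1 pre-granulosa call over its 2 extended baits. Cyp2t4 scored 7.23 and 11.5 with BC024978 at 40.8 kb.

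UDP glucuronosyltransferases were the enzyme family without a Sertoli excess, 7 against 11 calls in 16 original interactions (80.2% and 41.5% of all) and 30 against 32 in 42 extended interactions (78.7% and 55.9% of all). The Ugt1a genes on chromosome 1 are alternative first exons of 1 transcription unit that share their last exons. Of 12 listed pairs of their promoters, 9 were called in both cell types. The other 3 were called in 1 of them alone, Ugt1a6a and Ugt1a8 (8.93 and 3.48) and Ugt1a9 and Ugt1a10 (5.11 and 3.65) in Sertoli cells, and Ugt1a10 and Ugt1a7c (2.47 and 8.44, the higher of 2 listings) in pre-granulosa cells. Ugt1a7c and Ugt1a8 scored 15.9 in Sertoli and 18.4 in pre-granulosa cells from the Ugt1a7c bait at 11.03 kb, and 9.32 and 13.7 from the other side. Ugt1a9 and Ugt1a8 scored 10.8 and 18.8, and 4.70 and 12.6. Ugt1a1, the bilirubin-conjugating member and the last first exon, had the highest scores of all members, 39.7 and 34.0 at 10.3 kb.

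The Ugt1a1 bait was also where 0 scores were most visible. With the extended bait, the bins chr1:88230386-88235460 and chr1:88245990-88251236 scored 18.8 and 0, and 15.1 and 0, in Sertoli and pre-granulosa cells, while the 2 bins between them scored 18.5 and 17.3, and 16.4 and 12.9. With the original bait, chr1:88242749-88247895 scored 0 and 12.6, and chr1:88298644-88303099 scored 0 and 8.66. The first of these overlaps the last 2 extended bins, where the Sertoli scores were 16.4 and 15.1, so a 0 changed cell type with the bait size. What a 0 stands for there was not tested. On chromosome 5, Ugt2b5 contacted chr5:86883878-86889192 at 254 kb with 20.8 and 12.4, and 20.4 and 15.3 with the extended bait. The bins chr5:86894771-86899808 and chr5:86856918-86863009 scored 9.93 and 2.77, and 8.17 and 2.81.

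In the extended table another end can itself be a bait, so contacts within a family can be counted. Of 559 member interactions, 278 (49.7%, 95% Wilson interval 45.6 to 53.9) joined baits of 1 family, 5 joined 2 member families and 73 joined a bait of another gene. The share was 84.6% in Klk, 66.7% in Tas2r, 60.9% in Ces, 58.1% in Vmn1r and 52.4% in Ugt. It was 28.4% in Clec, 15.4% in Cyp2 and in Cyp4, 11.8% in Klr, 8.33% in Mup and 7.69% in Vmn2r. Olfactory receptor baits, no members here, joined a bait of their own family in 2444 of 2893 interactions (84.5%). Another end was a bait of any gene in 63.7% of member interactions and in 54.7% of those of the other baits. Same-family contacts were called 181 times in Sertoli and 178 times in pre-granulosa cells, 87 against 114 in the chemosensory families and 94 against 64 in the others. At 100 kb or more these were 32 and 19 calls, with 3 called in both, a ratio of 1.68 against 1.67 for the baits of no member family at that reach. Over all distances the ratio was 1.02, against 1.41 for those baits.

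A pair of baits can be listed from either side. Both listings come from the same libraries and can score the same read pairs, so they are not independent measurements of a contact. Of 198 distinct same-family pairs, 12 join 2 promoters of 1 gene, among them the single Vmn2r contact (Vmn2r18) and a Cyp4 contact (Cyp4f18). Of the 198, 80 were listed from both sides, and 67 of these (83.8%) had the same call from both, against 75.9% of all pairs of baits listed from both sides. In 74 (92.5%) the same cell type had the higher score, against 90.6%. Vmn1r40 and Vmn1r52, 464 kb apart, scored 7.88 in Sertoli and 0 in pre-granulosa cells from one side and 7.79 and 0 from the other. Vmn1r32 and Vmn1r36, 156 kb apart, scored 7.57 and 0.04, and 7.21 and 0.08. Vmn1r21 and Vmn1r25, 139 kb apart, ran the other way at 0.08 and 5.82, and 0.10 and 5.17. Vmn1r173 and Vmn1r174, 53.9 kb apart and printed above, scored 2.23 and 8.94, and 1.93 and 9.22.

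**Figure D5:**
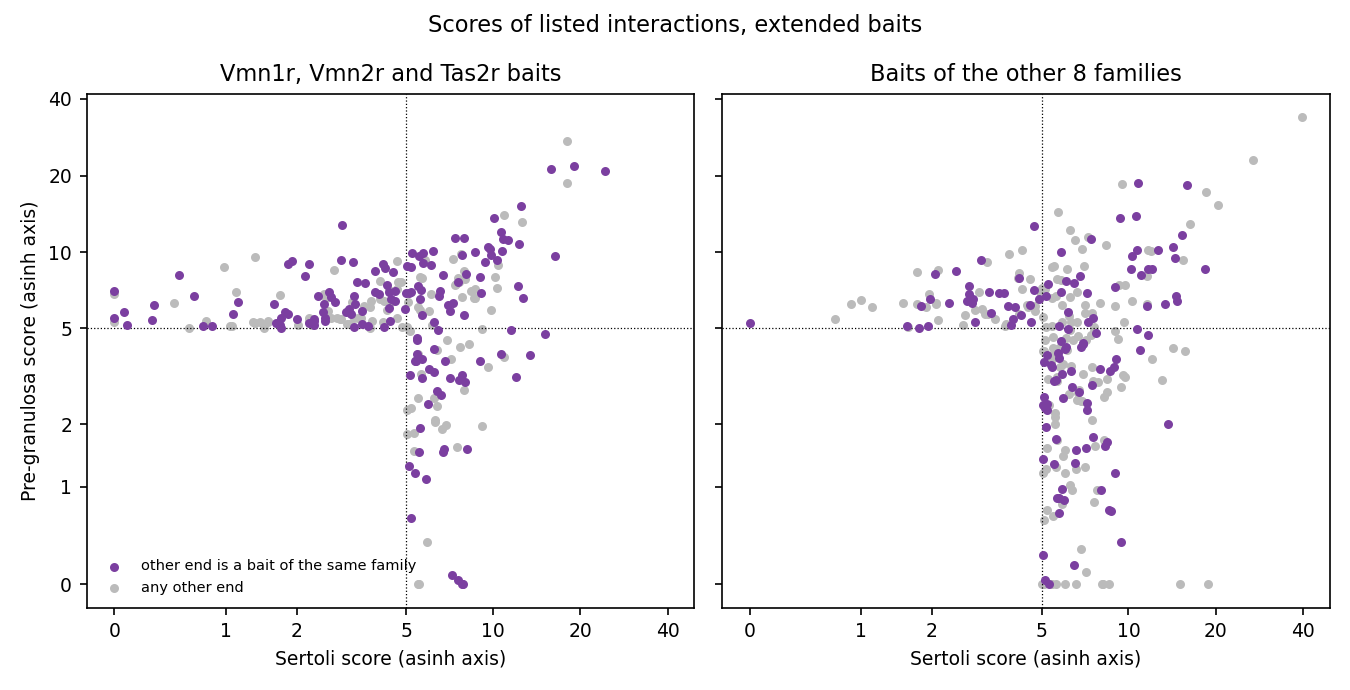
Pre-granulosa score (vertical axis) against Sertoli score (horizontal axis), both on an asinh scale, for each listed interaction of extended baits, with chemosensory families on the left and the other 8 families on the right. Purple points have a bait of the same family as the other end, grey points any other end, and dotted lines mark a score of 5. No point lies under 5 on both axes because such interactions are not listed, and the 69 interactions called in Sertoli cells alone on the left compare with 119 called in pre-granulosa cells alone.

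Few genes with a near copy had a bait, as given above, and a pair could be listed only between genes with baits, which limits the identity of the listed pairs. Of 147 pairs with both promoters in the RefSeq table, the median identity was 57.1%, and 5 pairs were at 90% or more. Unrelated promoters were not aligned, so whether 57.1% exceeds the identity of unrelated sequences was not tested. Of the 107 pairs under 70%, 68 were called in Sertoli and 68 in pre-granulosa cells, and of the 40 pairs at 70% or more, 28 and 23. Here a pair counted as called if it scored 5 or more from either side, so these shares are not those of single interactions. Vmn1r173 and Vmn1r174 were the single pair at 95% or more. Identity was measured over 250 upstream bases and not over the whole bin, so the mapping of the rest of each bin was not tested.

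Single contacts were followed across bait sizes. Of the 143 original member interactions at 10 kb or more, 76 (53.1%) had a counterpart in the extended table that overlapped by a share of at least 0.5, and 62 of these (81.6%) had the higher score in the same cell type. The call in each cell type was the same in 55 of the 76.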

How the data were processed

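Capture Hi-C scores of Sertoli cells (3 libraries) and pre-granulosa cells (2 libraries) were read from the 2 tables of interactions that the authors deposited. The authors' values are CHiCAGO scores, per the names of the deposited tables, with 1 column per cell type and only interactions with a score of at least 5 in 1 of them. The genome build is mm10, per the submitters' processing notes. The CHiCAGO version, read filters and the way libraries were combined are not given in the sources used here, and the depth is unknown.

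Members were found by gene symbol in the bait name, for cis interactions of chromosomes 1 to 9. The members and lists were chosen with earlier results of these data known. Member baits of a family on 1 chromosome with starts less than 1 Mb apart formed a cluster. Names were picked by rules: per family, the bait with the most interactions in each table, and the 10 highest scores per cell type and table. Further picks were the 10 largest differences of inverse hyperbolic sine scores in each direction and the highest same-family contacts. Baits with no call in one cell type and at least 3 in the other were also picked. Not every pick is named in the text, which leaves out Cyp4a14, Vmn1r49, Vmn1r178, Clec4n, Klk4 and Klk1b22 among others. Other baits and pairs were named after their values were seen, among them Vmn2r63, Vmn2r52, Tas2r106, Klk7, Klk10, Cyp2t4 and the contacts at 100 kb or more. Shares have 95% Wilson intervals and medians 95% binomial order-statistic intervals, which cover counting error only. No test was made, because no value exists for a single library.

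Promoter sequences were aligned with Biopython 1.88 (match 1, mismatch -1, gap -2, extension -0.5, free end gaps), and identity was taken over aligned columns, at least 150. Python 3.11.15 and pandas 2.3.3 were used, and the steps were tested on simulated data. Alternatives were extended baits, a score of at least 7, a distance of at least 20 kb, member-only baits, clustered baits, equal numbers of calls and, added after seeing the data, leaving out Vmn1r, chromosome 6, chromosome 7 or Clec18a. Trans interactions were left out of the comparisons.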

Additional observations from a re-analysis of the deposited data

Results flagged for a closer look

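Trans interactions, whose ends lie on different chromosomes, entered no comparison. Member baits had 7 listed trans interactions with original baits and 7 with extended baits, out of 269 and 232 in all, and they stand above a count of 0 in data outside the main measurement. In each of the 7 and 7, the score of one cell type was 0. Sertoli cells called 2 and 1 of them and pre-granulosa cells 5 and 6. The 0 scores and calls of the other trans interactions were not counted, so these values do not show a trait of the members. The highest was Vmn1r33 (chromosome 6) with a bin on chromosome 5, at 14.1 in Sertoli and 0 in pre-granulosa cells, and 12.0 and 0 with the extended bait. Vmn1r50 scored 0 and 8.82 with a bin on chromosome 17, and 0 and 8.32 with the extended bait. The table of extended baits also listed Ces1c (chromosome 8) with the Snx8 promoter (chromosome 5) at 0 and 7.56. No library was compared with others of its group, because only pooled scores were given.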

How the results depend on the processing

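No paired analysis was possible because the tables hold 1 column per cell type and no replicate values. Leaving out a library was not possible for the same reason. With extended baits the calls rose from 179 and 177 to 372 in Sertoli and 346 in pre-granulosa cells, the medians to 26.8 and 21.5 kb and the share of RefSeq genes to 42.8%. A score of at least 7 left 64 and 59 calls, with medians of 8.21 and 8.34 kb. At 20 kb or more there were 61 and 54 calls, with medians of 133.5 and 68.2 kb, 10.6% called in both, and 54.2% of the extended interactions within a family. Original baits gave 0% within a family, since no other end of a member interaction carries a bait name there. Without Vmn1r baits, chosen after seeing the data, there were 114 and 98 calls, 19.1% called in both and a Sertoli median of 13.8 kb. With equal numbers of top-scoring calls per cell type, the member ratio fell to 0.51 and the share called in both to 19.6%, while the ratio of baits of no member family was 1.01. Under the other settings tried for it (extended baits, a score of at least 7, 20 kb or more, unmixed baits, clustered baits, without Vmn1r), the member ratio stayed between 0.94 and 1.16. The Mup ratio turned from 1.22 to 0.71 at a score of at least 7 and to 0.78 with equal numbers. Depth is unknown, so the scores' precision is too.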
